A study of Homo sapiens with 12 samples.

Results

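Cells make cytosolic acetyl-CoA from acetate or from citrate. In LN229, an established line of human glioblastoma cells, 8 genes of these routes or related to them were followed. They were ACSS1, ACSS2 and ACSS3, which activate short-chain acids, ACLY and SLC25A1, which act on citrate, and SLC16A1, SLC16A3 and SLC16A7, which carry monocarboxylates across the plasma membrane. Genes were matched by symbol, and 1 transcript stood for each gene: the one the submitters marked as best, or the one with the highest total count where none was marked. All 8 were found among the 22257 genes in the files, and all 8 were among the 14416 genes with enough counts to be tested.

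The data are 12 RNA-seq libraries in 3 groups of 4. Cultures at 80% confluence were treated for 24 h, all of them in RPMI with 10% dialyzed FBS, a serum from which small molecules have been removed. The groups differed in the medium: the first had 1 mM glucose, the second had 5 mM acetate added to that, and the third had 10 mM glucose and no acetate. Acetate was thus tested at low glucose alone and in a single cell line. Nothing in the labels says that replicates were separate cultures, so the spread behind the p-values may be technical.

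As background, acetate enters cells through proton-linked monocarboxylate transporters of the SLC16 family, which also move lactate, pyruvate and ketone bodies. ACSS2 joins acetate to coenzyme A in the cytosol and nucleus, and ACSS1 does so in mitochondria. In well-fed cells most cytosolic acetyl-CoA comes from glucose instead: citrate made in mitochondria leaves through SLC25A1, the citrate carrier, and ACLY, ATP citrate lyase, splits it. Both routes feed fatty acid and sterol synthesis and the acetylation of histones. Glioblastoma is known to oxidise acetate, and ACSS2 is a known target of the SREBP transcription factors.

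Total counts after choosing 1 transcript per gene ran from 24.4 M to 27.2 M per library, with M for mega. CPM values below are counts per M counts after TMM scaling, summarised as mean ± SD over 4 libraries. Differences are log2 fold changes ± SE from 1 edgeR quasi-likelihood fit of the 12 libraries. A gene was called changed at a Benjamini-Hochberg adjusted p under 0.05 over all genes tested. The 8 glial and glioma markers, led by VIM, NES and CD44, summed to 6454 to 7717 CPM in 1 mM glucose, 6046 to 6494 CPM with acetate and 5891 to 6006 CPM in 10 mM glucose. Single markers moved in opposite directions from 1 to 10 mM glucose, where 3 of the 8 rose and 4 fell: SOX2 by 2.40 and OLIG2 by -1.56 on the log2 scale were the extremes. EGFR, 1 of those that fell, lost its call with library totals as scaling and on leaving out several single libraries, so 3 or 4 fell. With acetate 2 rose and 2 fell, S100B by 0.48 and OLIG2 by -0.66 being the extremes, and 1 to 2 fell with 1 library left out. GFAP, a defining astrocyte marker, was nearly absent, with group means from 0.848 to 1.14 CPM. Neuron markers were low, 3 of 5 being under 1 CPM throughout, though SNAP25 rose with glucose (0.88) and acetate (0.30). Their sum was 10.1 to 10.9 CPM in 1 mM glucose, 11.9 to 13.0 CPM with acetate and 17.3 to 18.7 CPM in 10 mM glucose. Of 6 blood and endothelial markers 4 were under 1 CPM throughout, and their sum was 54.7 to 65.0 CPM, 63.0 to 70.2 CPM and 18.9 to 23.1 CPM in the same order, nearly all from CD68. CD68 fell with glucose by 1.52 on the log2 scale, while VWF was higher both with glucose (1.52) and with acetate (1.62) at levels near or under 1 CPM. The part of these marker changes in the results below was not tested. In 2 libraries, counts within their group leaned towards short genes: Spearman's rho of deviation with transcript length was -0.555 in 1 mM glucose replicate 3 and -0.616 in acetate replicate 1, and lay between -0.295 and 0.519 in the other 10. Member values that rest on these libraries are given both ways, and so are many, but not all, calls of related lists that change without them. Both libraries were picked from the data themselves, so p-values from fits without them are a description only. Without both, 3 glial and glioma markers were called higher with acetate, and so were 2 blood and endothelial markers. With glucose, 2 blood and endothelial markers were then called lower.

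Between 10 mM and 1 mM glucose, 5 of the 8 genes rose (ACSS1, ACSS2, ACLY, SLC25A1 and SLC16A3) and 2 fell (SLC16A1 and ACSS3), while SLC16A7 was not called. These are RNA levels of a whole culture, in which fewer expressing cells and less RNA per cell cannot be told apart. In the same comparison 67.5% of all genes tested were called, 33.7% higher and 33.8% lower, so being called was common. For the 7 called members no library of one group fell within the other group, which held for 61.5% of all genes tested. For ACSS3 it rested on the library scaling, as some libraries of both groups had equal counts. The median log2 difference of the 8 genes was 0.37, against 0.0011 over all genes tested. When acetate was added at 1 mM glucose, ACSS2 fell and the other 7 genes were not called. There, 13.7% of all genes tested were called, 6.65% higher and 7.09% lower, and the groups did not overlap for 15.6%. The median log2 difference of the 8 genes was -0.0033, against 0.0020 over all genes. Between 10 mM glucose and 1 mM glucose with acetate, 5 genes rose and 1, SLC16A1, fell, against 62.8% of all genes called, 31% higher and 31.8% lower. The libraries did not overlap for these 6 and for ACSS3, as for 61% of all genes. The 3 comparisons share libraries pairwise, so they are not independent of each other.

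**Figure D1:**
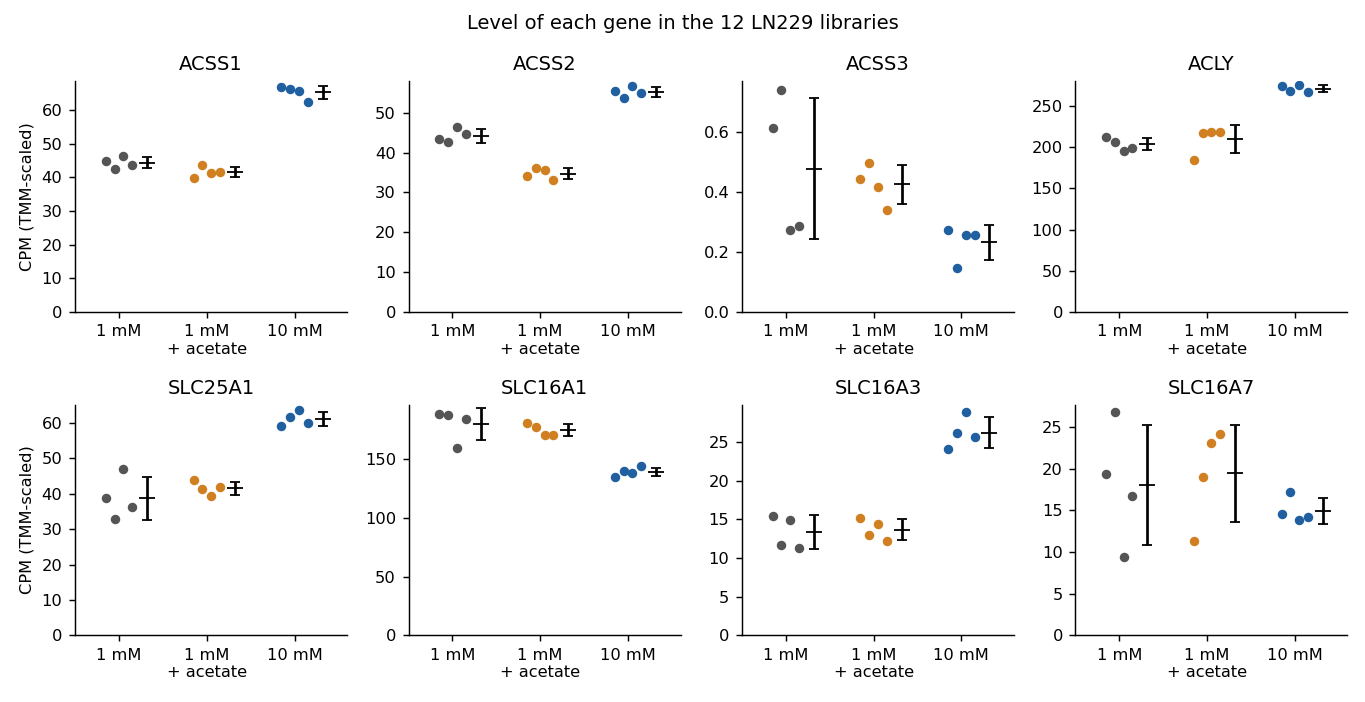
Level in CPM of each of the 8 genes in each library, with the mean and SD of each group of 4. ACSS2 is the gene whose acetate libraries (33.2 to 36.1 CPM) all lie below its 1 mM glucose libraries (42.6 to 46.6 CPM), while the 10 mM glucose libraries of 5 genes lie above both other groups.

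**Figure D2:**
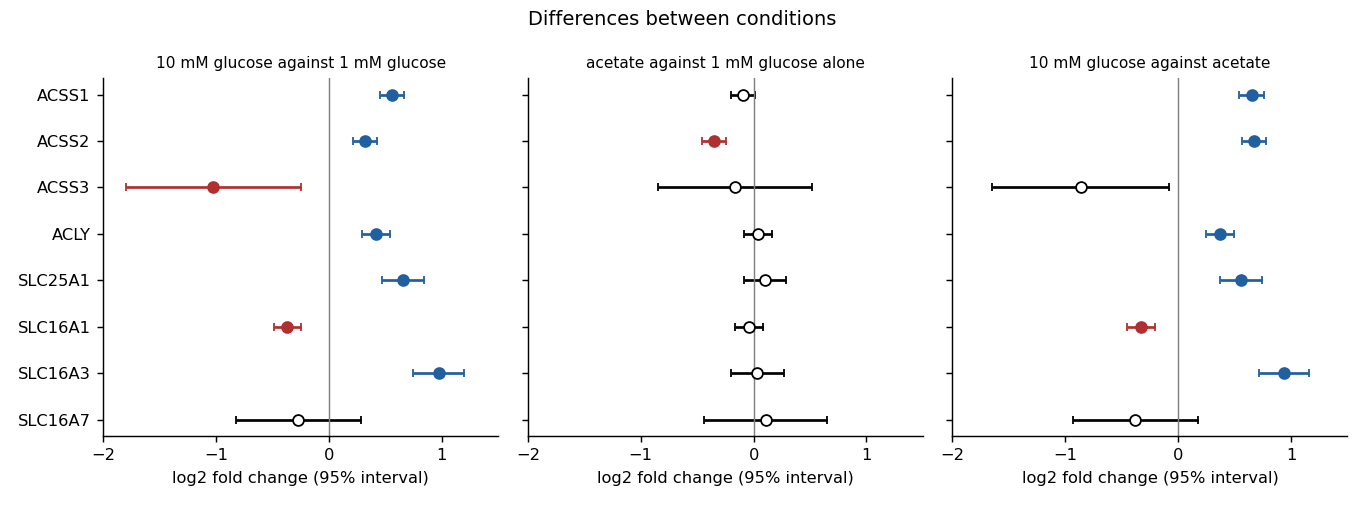
Log2 difference of each gene with its 95% confidence interval in the 3 comparisons, 4 libraries a group. Blue marks a gene called higher in the group named first, red a gene called lower, and open circles genes not called. SLC16A3 has the highest difference between 10 mM and 1 mM glucose (0.97), and ACSS2 is the one gene whose interval for acetate against 1 mM glucose lies wholly below 0.

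Promoter sequences were read from RefSeq (GRCh38.p14, while the counts were made on hg19), matched by symbol. A table entry was found for 6 members, with 14 start sites, and not for ACSS3 or SLC16A1. The 250 bases before each start were searched on both strands for 6 motifs. SLC16A3 is shown because it had the largest rise, and its start at position 82229042 of chromosome 17 (plus strand) had 2 matches to ACGTG. These letters are a form of the core of the element bound by hypoxia-inducible factors, and also part of the E-box CACGTG. Capitals mark the match, and letters run 5′ to 3′ on the gene's strand.
SLC16A3, 68 to 64 bases before the start, chr17:82228964-82228988: ccaggcggtgACGTGcgcgggggac
SLC16A3, 55 to 51 bases before the start, chr17:82228977-82229001: tgcgcgggggACGTGccgcgccagc
The windows overlap on the genome. ACGTG was found in 18.5% of the 35116 RefSeq promoter windows, and in none of the other 13 member windows. The other form of the core, GCGTG, was not searched for, and it occurs in an ACLY stretch printed below.

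ACLY is shown because it is the citrate-side enzyme compared with ACSS2. Its start at position 41919022 of chromosome 17 (minus strand) had 2 matches to CCAAT, 1 on each strand (ATTGG is CCAAT read on the other strand), a motif found in 32% of all windows. CCAAT was also found before 1 start of ACSS2 and before the start of SLC25A1.
ACLY, 65 to 61 bases before the start, chr17:41919073-41919097: ccagcagcgaATTGGgaggagccct
ACLY, 23 to 19 bases before the start, chr17:41919031-41919055: acgcgtgtggCCAATcgcggggccg
ACSS2 is shown because it was the gene called with acetate. Its start at position 34876612 of chromosome 20 (plus strand) had 3 matches to the GC box GGGCGG, all on the other strand (CCGCCC), of which 2 are printed.
ACSS2, 125 to 120 bases before the start, chr20:34876477-34876502: agacacggccCCGCCCcctctggcac
ACSS2, 67 to 62 bases before the start, chr20:34876535-34876560: tcaccaggccCCGCCCctctacggag
GGGCGG was found in 42.6% of all windows. SLC25A1 had 8 matches, the upstream start of ACSS1 had 4, and the 2 starts of ACLY had 3 and 4. Some starts of SLC16A3 had 1 to 3. The sterol response letters TCACNCCAC (0.883% of all windows), the E-box CACGTG (6.34%) and the ATF4 letters TGATGNAA (3.14%) were in no member window. A match is a run of letters and not a bound site, and a missing match says only that these letters are not in that window.

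ACSS2, the acetyl-CoA synthetase of cytosol and nucleus, stood at 43.4, 42.6, 46.6 and 44.7 CPM in replicates 1 to 4 in 1 mM glucose. With acetate it stood at 34.2, 36.1, 35.6 and 33.2 CPM, and in 10 mM glucose at 55.5, 53.8, 56.9 and 55.1 CPM. No library of any group overlapped another group: the acetate libraries were lowest and the 10 mM libraries highest. The mean was 44.3 ± 1.74 CPM in 1 mM glucose, 34.8 ± 1.29 CPM with acetate and 55.3 ± 1.25 CPM in 10 mM glucose. Acetate lowered ACSS2 by -0.35 ± 0.05 on the log2 scale (edgeR adjusted p = 5.0e-04), a change of -21.5% with a 95% interval of -27.2 to -15.4%. Of all genes tested, 12.7% differed more in this comparison, in either direction. From 1 to 10 mM glucose ACSS2 rose by 0.32 ± 0.05 (edgeR adjusted p = 4.6e-05), and it was 1.59-fold higher in 10 mM glucose than with acetate (log2 difference 0.67 ± 0.05, edgeR adjusted p = 3.1e-08).

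ACSS1, the mitochondrial enzyme of the same reaction, stood at 44.8, 42.6, 46.4 and 43.7 CPM in 1 mM glucose, at 39.9, 43.7, 41.2 and 41.6 CPM with acetate, and at 67.0, 66.2, 65.7 and 62.5 CPM in 10 mM glucose. The 10 mM libraries were all higher than the rest, and the other 2 groups overlapped. ACSS1 rose by 0.56 ± 0.05 from 1 to 10 mM glucose (edgeR adjusted p = 1.7e-07). The acetate difference of -0.09 ± 0.05 did not pass (edgeR adjusted p = 0.248), and its 95% interval ran from -13.1 to 1.06%.

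The ratio of ACSS2 to ACSS1 within a library showed how unequally the pair moved. Its log2 value was -0.0028 ± 0.0336 in 1 mM glucose, -0.26 ± 0.05 with acetate and -0.24 ± 0.05 in 10 mM glucose. The 1 mM libraries lay above those of both other groups, by 0.26 over acetate and 0.24 over 10 mM glucose. The exact permutation p was 0.0286 for each, the smallest that 4 against 4 libraries can give, and 0.0571 after adjustment over the 12 ratio tests, which misses 0.05. The ratio with acetate and the ratio in 10 mM glucose differed by 0.02 (exact permutation p = 0.571). In the first case ACSS2 was lower while ACSS1 overlapped. In the second both were higher, with ACSS1 further from its 1 mM level.

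ACSS3, a mitochondrial synthetase best known for propionate, was near the limit of detection, with 4 to 18 counts a library. Its level was 0.611, 0.739, 0.273 and 0.286 CPM in 1 mM glucose, 0.443, 0.496, 0.416 and 0.340 CPM with acetate, and 0.271, 0.145, 0.255 and 0.255 CPM in 10 mM glucose. Every 10 mM library lay below all 1 mM and acetate libraries, by a narrow margin for 2 of the 1 mM libraries. Those 2, replicates 3 and 4, had 7 counts each, as did 10 mM replicates 1, 3 and 4. Their order thus came from the library scaling alone. ACSS3 fell by 1.02 ± 0.36 on the log2 scale from 1 to 10 mM glucose (edgeR adjusted p = 0.0214). That call was lost without 1 mM replicate 1 (edgeR adjusted p = 0.0659), 1 mM replicate 2 (0.0873) or 10 mM replicate 2 (0.0653). With acetate it differed by -0.16 ± 0.32 (edgeR adjusted p = 0.780), an interval of -44.3 to 43.5% that leaves large changes undetectable at this depth.

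ACLY, which makes acetyl-CoA from citrate, stood at 213, 207, 196 and 199.6 CPM in 1 mM glucose, at 184, 217, 219 and 218 CPM with acetate, and at 275, 269, 276 and 267 CPM in 10 mM glucose. The 10 mM libraries were all higher, and the acetate libraries straddled those of 1 mM glucose. Acetate replicate 1, the library leaning most to short genes, was the low one. ACLY rose by 0.41 ± 0.06 from 1 to 10 mM glucose (edgeR adjusted p = 1.9e-05). With acetate it differed by 0.04 ± 0.06 (edgeR adjusted p = 0.688), with an interval of -5.68 to 12.2%. Without acetate replicate 1 the difference was 0.10 (edgeR adjusted p = 0.138), still not called.

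SLC25A1, the mitochondrial citrate carrier, stood at 38.8, 32.8, 47.0 and 36.3 CPM in 1 mM glucose, at 43.8, 41.2, 39.3 and 41.9 CPM with acetate, and at 59.0, 61.6, 63.5 and 60.0 CPM in 10 mM glucose. The 10 mM libraries were again all highest. Among the 1 mM libraries, replicate 3 was the high one, and this gene has the shortest transcript of the 8, at 1648 bases. SLC25A1 rose by 0.66 ± 0.09 from 1 to 10 mM glucose (edgeR adjusted p = 9.2e-06). With acetate it differed by 0.10 ± 0.09 (edgeR adjusted p = 0.481). Without 1 mM replicate 3 this became 0.21 (edgeR adjusted p = 0.0358), and 0.18 without both libraries that lean to short genes (edgeR adjusted p = 0.0327).

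The log2 ratio of ACSS2 to ACLY, the acetate and citrate routes in 1 number, was -2.20 ± 0.10 in 1 mM glucose, -2.59 ± 0.12 with acetate and -2.29 ± 0.02 in 10 mM glucose. The acetate libraries, from -2.71 to -2.43, lay below both other groups. The ratio was lower by -0.39 than in 1 mM glucose, and the 10 mM ratio was higher than the acetate ratio by 0.29. Each had an exact permutation p of 0.0286 and 0.0571 after adjustment. Between 10 and 1 mM glucose, where both genes rose, the ratio differed by -0.09 and the groups overlapped (exact permutation p = 0.171). ACLY and SLC25A1 showed no separation in their ratio in any comparison, with exact permutation p values of 0.143, 0.6 and 0.143 and a wide spread in 1 mM glucose (2.06 to 2.66). Without acetate replicate 1 the 10 mM ratio lay below all acetate ratios, by -0.27, with an exact permutation p of 0.0490 after adjustment.

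**Figure D3:**
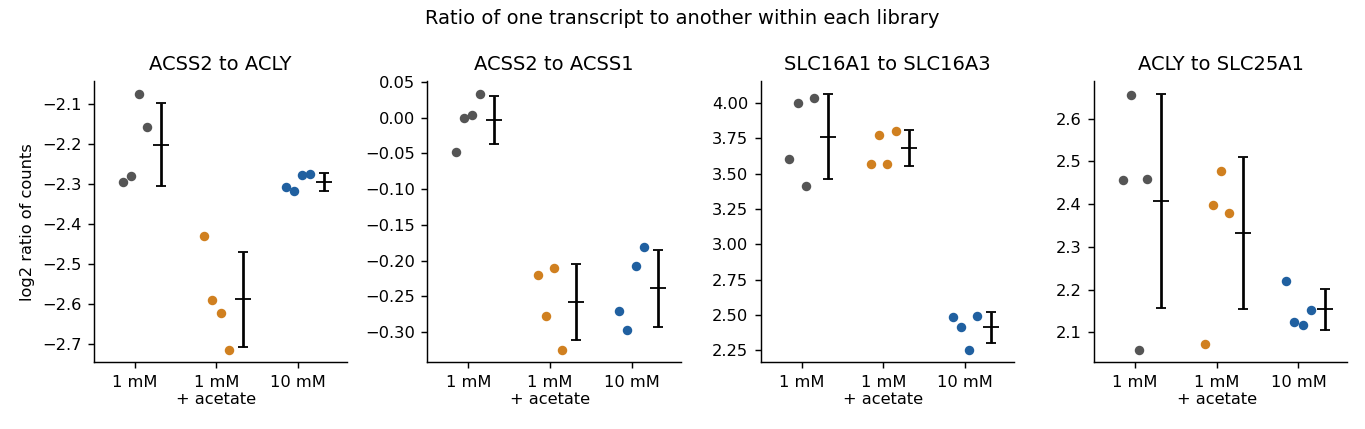
Log2 ratio of counts between 4 pairs of genes in each library, with the mean and SD of each group of 4. The ACSS2 to ACLY ratio is lowest in the 4 acetate libraries (-2.71 to -2.43), and the SLC16A1 to SLC16A3 ratio is lowest in the 4 libraries with 10 mM glucose (2.25 to 2.49).

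SLC16A1, or MCT1, is the widely expressed transporter that carries lactate and acetate in either direction. It stood at 188, 187, 159.7 and 184 CPM in 1 mM glucose, at 181, 177, 170.4 and 171 CPM with acetate, and at 135, 139.9, 138 and 144 CPM in 10 mM glucose. The 10 mM libraries were all lowest, and the other groups overlapped. SLC16A1 fell by 0.37 ± 0.06 on the log2 scale from 1 to 10 mM glucose (edgeR adjusted p = 4.2e-05). With acetate it differed by -0.04 ± 0.06 (edgeR adjusted p = 0.675), with an interval of -10.6 to 5.70%. The low library among those of 1 mM glucose was replicate 3, without which the acetate difference was -0.09 (edgeR adjusted p = 0.184).

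SLC16A3, or MCT4, is the lactate exporter of strongly glycolytic cells. It stood at 15.5, 11.7, 15.0 and 11.3 CPM in 1 mM glucose, at 15.2, 12.9, 14.3 and 12.2 CPM with acetate, and at 24.1, 26.2, 28.9 and 25.6 CPM in 10 mM glucose. The 10 mM libraries were all highest, and the acetate values lay inside the range of 1 mM glucose. SLC16A3 rose by 0.97 ± 0.11 on the log2 scale from 1 to 10 mM glucose (edgeR adjusted p = 1.2e-06), the largest rise of the 8 genes in that comparison. With acetate it differed by 0.03 ± 0.11 (edgeR adjusted p = 0.871), with an interval of -12.9 to 20.5%.

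SLC16A7, or MCT2, is a transporter with high affinity for pyruvate and lactate. It stood at 19.3, 26.8, 9.44 and 16.7 CPM in 1 mM glucose, at 11.4, 19.0, 23.1 and 24.2 CPM with acetate, and at 14.6, 17.2, 13.9 and 14.2 CPM in 10 mM glucose. All groups overlapped, and the lowest values were those of 1 mM replicate 3 and acetate replicate 1, the libraries leaning to short genes. The transcript counted for SLC16A7 is the longest of the 8, at 11777 bases. No comparison called it: the differences were -0.27 ± 0.26 for 10 against 1 mM glucose (edgeR adjusted p = 0.368), 0.11 ± 0.26 for acetate (0.821) and -0.38 ± 0.26 for 10 mM glucose against acetate (0.215). Without both of those libraries it was lower in 10 mM glucose than in 1 mM glucose, by -0.49 (edgeR adjusted p = 0.0011), and lower than with acetate, by -0.57 (2.4e-04). Those libraries were picked from the data and hold the lowest SLC16A7 values, so their removal itself favours such a difference. The highest, 1 mM replicate 2 (26.8 CPM), leans to long genes with a rho of 0.519 and was kept.

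**Figure D4:**
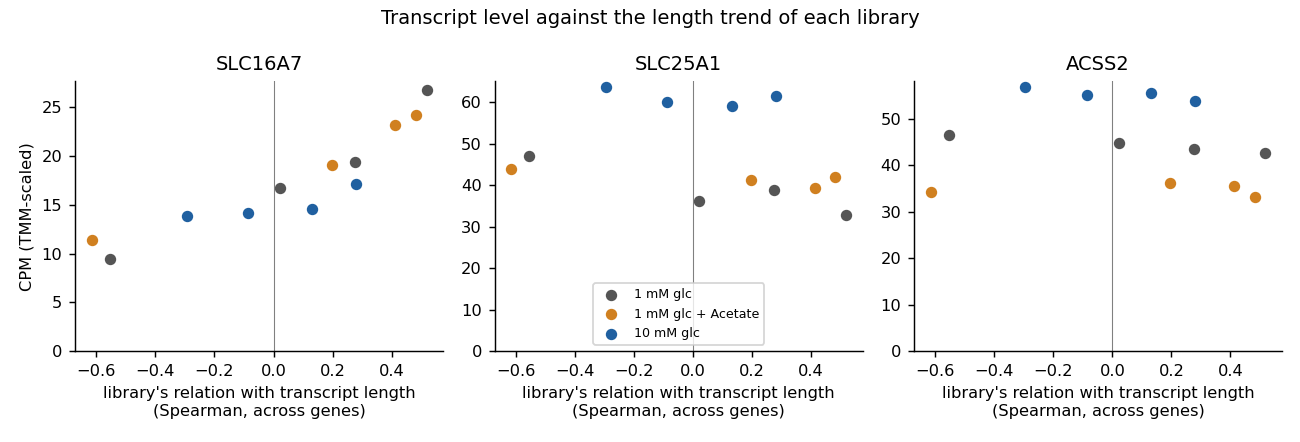
Level in CPM of SLC16A7, SLC25A1 and ACSS2 in each library against Spearman's rho, across genes, between transcript length and the deviation of a gene from its group mean in that library. SLC16A7 is lowest in the 2 libraries with rho of -0.555 and -0.616 (9.44 and 11.4 CPM), SLC25A1 is highest of its group in both, and for ACSS2 the 3 groups stay apart along the axis. The libraries share their genes, so no test is given.

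MCT1 and MCT4 thus moved in opposite directions between 1 and 10 mM glucose. The log2 ratio of SLC16A1 to SLC16A3 was 3.76 ± 0.30 in 1 mM glucose, 3.68 ± 0.13 with acetate and 2.41 ± 0.11 in 10 mM glucose. The 10 mM libraries lay below all others, by -1.35 from 1 mM glucose and -1.27 from acetate. For both, the exact permutation p was 0.0286, and 0.0571 after adjustment. Acetate and 1 mM glucose overlapped, with a difference of -0.08 (exact permutation p = 0.543).

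**Figure D5:**
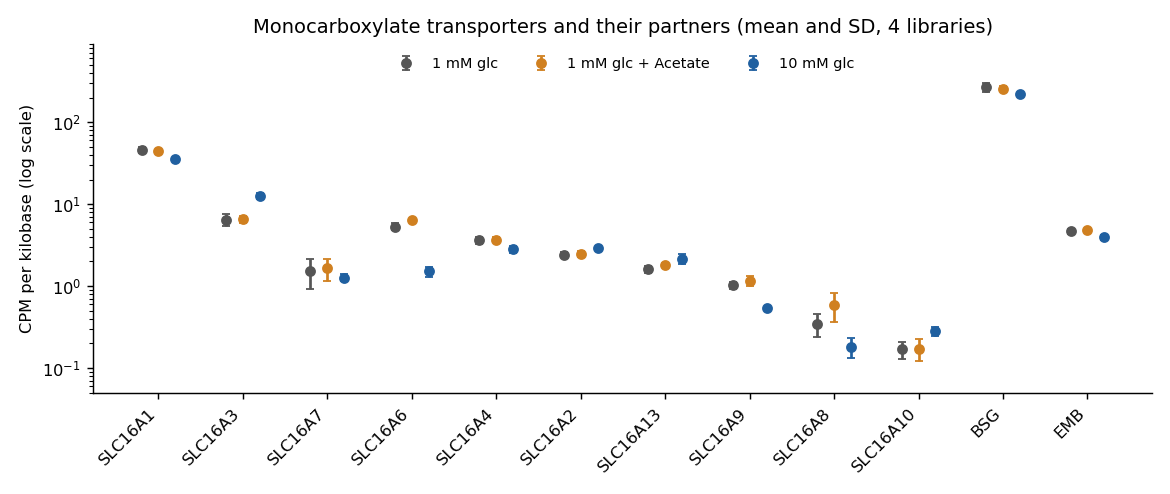
Level of the tested SLC16 transporters and of BSG and EMB in CPM per kilobase of transcript, on a log scale, as mean and SD of 4 libraries a group. SLC16A3 is higher in 10 mM glucose (12.6) than in 1 mM glucose (6.44), and SLC16A1 (35.6 against 46.0) and SLC16A6 are lower there.

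Levels of different genes were compared as CPM per kilobase of the counted transcript. In 1 mM glucose the order was ACLY (47.0), SLC16A1 (46.0), SLC25A1 (23.5), ACSS2 (15.1), ACSS1 (12.1), SLC16A3 (6.44), SLC16A7 (1.53) and ACSS3 (0.0516), and of neighbours in this order only ACLY and SLC16A1 overlapped. With acetate, ACLY (48.3) and SLC16A1 (44.7) overlapped, and so did ACSS2 (11.9) and ACSS1 (11.3). In 10 mM glucose ACLY stood alone at 62.6, SLC25A1 (37.0) and SLC16A1 (35.6) overlapped, and SLC16A3 reached 12.6. MCT1 therefore exceeded MCT4 per kilobase in all 3 groups, and ACSS3 was the lowest gene in each.

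Several of these genes have more than 1 transcript in the files: 14 transcripts in all, with ACLY, ACSS2, SLC16A1, SLC16A3 and SLC25A1 holding 2 or 3 each. Within a library the counts of a gene's transcripts differed by at most 0.733% (SLC16A1), so isoforms of these genes could not be told apart. Whether counting used strand is not known here, so reads from overlapping antisense genes could not be separated.

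The other SLC16 transporters moved in both directions with glucose. Of 11 listed, 7 were tested: between 10 and 1 mM glucose 3 rose and 4 fell, with a median log2 difference of -0.37. SLC16A6, known as MCT7, fell most, from 20.3 to 5.76 CPM (log2 difference -1.81 ± 0.10, edgeR adjusted p = 7.2e-10). SLC16A10, an aromatic amino acid transporter, rose by 0.74 ± 0.24 (edgeR adjusted p = 0.0138) at a level under 1 CPM. With library totals in place of TMM, 3 of these fell, SLC16A8 no longer being called. SLC16A8, at 0.656 CPM in 1 mM glucose, also lost its call on leaving out most single libraries, so 3 or 4 fell. None of the 7 was called with acetate, where SLC16A6 differed by 0.26 (edgeR adjusted p = 0.0673), and only SLC16A6 was called with library totals. SLC16A6 was also called without 1 mM replicate 2 (0.30, edgeR adjusted p = 0.0393), and without both libraries that lean to short genes SLC16A8 was (1.02, 0.00604).

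MCT1 and MCT4 need basigin, BSG, to reach the membrane, and MCT2 uses embigin, EMB. From 1 to 10 mM glucose BSG fell by 0.27 ± 0.08 on the log2 scale (525 to 434 CPM, edgeR adjusted p = 0.00707), and EMB fell by 0.24 ± 0.07 (20.1 to 17.0 CPM, edgeR adjusted p = 0.00583). Scaled by library totals, which shifts the median of all genes by 0.14, neither was called. Neither was called with acetate, where BSG differed by -0.05 and EMB by 0.06. The sodium-coupled carrier SLC5A8 had 0 counts in all 12 libraries, which allows up to 0.123 CPM, and SLC5A12 had a mean of 0.0204 CPM in 1 mM glucose and no counts elsewhere.

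Of 5 lactate dehydrogenase and pyruvate carrier genes, 4 were tested, and with glucose 1 rose and 1 fell. LDHA, which makes lactate from pyruvate, rose from 685 to 1759 CPM (log2 difference 1.36 ± 0.07, edgeR adjusted p = 2.8e-10). LDHB, which favours the reverse reaction, differed by -0.14 (edgeR adjusted p = 0.0695), and was called lower without acetate replicate 1 (-0.14, 0.0264) and without both libraries that lean to short genes (-0.10, 0.0427). MPC1, a subunit of the mitochondrial pyruvate carrier, fell with glucose by 0.49 ± 0.08 and with acetate by 0.37 ± 0.08 (edgeR adjusted p = 1.2e-04 and 0.00970), and was the 1 gene of this list called with acetate.

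Around citrate and acetyl-CoA, 8 of 9 listed genes of citrate synthesis and mitochondrial carriers were tested, and 3 rose and 2 fell from 1 to 10 mM glucose (median 0.10), or 5 and 1 when scaled by library totals, and 4 and 1 without both libraries that lean to short genes. The dicarboxylate carrier SLC25A10 rose by 0.90 ± 0.10, alongside the citrate carrier. IDH1, the cytosolic isocitrate dehydrogenase, fell by 1.22 ± 0.07, from 210.0 to 90.3 CPM. Of 12 tested genes that use, store or release acetyl-CoA, 8 rose and 1 fell (median 0.39). That was 9 and 1 when scaled by library totals, and also without both libraries that lean to short genes. FASN, fatty acid synthase, went from 488 to 773 CPM, a log2 difference of 0.66 ± 0.13. CROT, the peroxisomal carnitine octanoyltransferase, rose by 1.23 ± 0.06, and SLC33A1, which carries acetyl-CoA into the endoplasmic reticulum, fell by 1.40 ± 0.05. With acetate none of the citrate genes was called, and CROT (0.29 ± 0.06, edgeR adjusted p = 0.00511) was the 1 gene called of the acetyl-CoA list. Without both libraries that lean to short genes, 1 citrate gene was called higher, SLC25A10 (0.29 in place of 0.17, edgeR adjusted p = 0.00242), and 4 of the acetyl-CoA list were higher and 1 lower. FASN was among the 4: it stood at 336 CPM in acetate replicate 1 and at 511, 582 and 592 CPM in the other acetate libraries. Its difference with acetate was 0.05 with all libraries, 0.20 without acetate replicate 1 (edgeR adjusted p = 0.0490) and 0.17 without both (0.0398). HMGCS1, which starts sterol synthesis, was the 1 lower, by -0.19 without both (edgeR adjusted p = 0.0295), against -0.18 with all libraries (0.101). Of the other short and medium chain acyl-CoA synthetases 4 of 10 were tested, and 2 rose with glucose, or 4 when scaled by library totals, and 1 to 3 with 1 library left out. Without both libraries that lean to short genes, 3 rose. ACSF2 rose both with glucose (0.77 ± 0.09) and with acetate (0.41 ± 0.09, edgeR adjusted p = 0.00944).

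Among 14 listed regulators of ACSS2 and ACLY, all tested, 5 rose and 3 fell from 1 to 10 mM glucose, with a median of 0.06, or 7 and 2 when scaled by library totals, and 7 and 4 without both libraries that lean to short genes. SREBF2, which encodes an SREBP transcription factor, rose by 0.68 ± 0.08, and SREBF1 by 0.27 ± 0.05. SIRT1, a deacetylase, fell by 0.50 ± 0.08. With acetate 2 rose and 1 fell. INSIG1, which holds SREBP proteins in the endoplasmic reticulum and is itself an SREBP target, fell from 39.3 ± 1.82 to 27.6 ± 0.611 CPM (-0.51 ± 0.05, edgeR adjusted p = 5.4e-05). In 10 mM glucose it stood at 38.6 CPM, a log2 difference of -0.03 from 1 mM glucose that did not pass (edgeR adjusted p = 0.685). The acetyltransferase KAT2B rose by 0.39 ± 0.06 with acetate (edgeR adjusted p = 0.00124). PRKAA1, a catalytic subunit of AMPK, rose by 0.28 ± 0.08 (edgeR adjusted p = 0.0389), from a 1 mM level of 94.1 CPM in replicate 3 and 120.4, 130.3 and 125 CPM in the others. Without 1 mM replicate 3 its rise was 0.19 (edgeR adjusted p = 0.0316), and the call was lost on leaving out any 1 of 9 other libraries (edgeR adjusted p from 0.0509 to 0.110). SREBF1 (0.12) and SREBF2 (0.19) were not called with acetate. SREBF2 stood at 69.6 CPM in acetate replicate 1 and at 93.4, 93.7 and 94.5 CPM in the other acetate libraries, and without that library it was higher by 0.29 (edgeR adjusted p = 0.00170). Without both libraries that lean to short genes, 6 of the 14 regulators were called higher with acetate and 3 lower, among them SREBF1 (0.17, edgeR adjusted p = 0.0214), SREBF2 (0.27, 4.1e-04) and SIRT1 (-0.20, 0.0164). INSIG1 was lower by -0.54 there (edgeR adjusted p = 1.3e-06).

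For each member of at least 1 CPM, the genes most like it were taken as the 2 with the highest Pearson r of log2 CPM over the 12 libraries, among 11190 genes. They were TNFRSF1A (0.982) and PPAP2B (0.981) for ACSS2, ARSB (0.994) and C22orf13 (0.993) for ACSS1, and HIVEP3 (0.993) and NDST1 (0.993) for ACLY. For SLC25A1 they were USP39 (0.990) and SDHA (0.989), for SLC16A1 WSB1 (0.982) and ANKMY2 (0.981), and for SLC16A3 C14orf80 (0.985) and ZNF672 (0.984). SLC16A7 was most like NBEAL1 (0.993) and USP34 (0.992). The 12 points share 3 groups and their libraries, and most genes differ between 1 and 10 mM glucose, so such values are a description only.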

How the data were processed

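RNA-seq of 12 LN229 libraries was analysed from the raw counts per RefSeq transcript that the authors deposited as whole numbers, for 34917 transcripts of 22257 genes. The build was hg19, per the submitters' processing notes. For the aligner, the counting program and the strand setting, the answer is the same: not given in the sources used here. The submitters marked 1 best transcript for 20895 genes. For 7 of the 8 members this mark was used, and for SLC25A1 the transcript with the highest total.

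Genes were filtered with filterByExpr, scaled by TMM and tested in edgeR 4.0.16 (R 4.3.3) by quasi-likelihood F tests, with Benjamini-Hochberg adjustment over 14416 genes. All 12 libraries entered 1 fit, whose common biological coefficient of variation was 8.51%. Ratios used a prior count of 0.5 and exact two-sided permutation tests. The counts of any 2 replicates differed beyond counting noise. The scripts were tested on simulated data. Transcript lengths came from GENCODE v29, matched by RefSeq accession. The match ignored the version, so a length may differ from that of the transcript model counted. Alternatives used DESeq2 1.42.0 and limma 3.58.1.

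The members and lists were chosen with earlier results of these data known. Named are all 8 members, preset genes of the related lists, the called gene highest and lowest in each list for glucose and for acetate, marker lists included, and the 2 genes most like each member. Other genes of these lists that are named, such as SLC16A8, were chosen after their values were seen, as were the alternatives for the related lists. MPC1 is in the files under the symbol BRP44L, and was matched by accession.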

Additional observations from a re-analysis of the deposited data

Results flagged for a closer look

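In 36 sets of 4 libraries (each member and ratio in each group), 3 had 1 library further from the others than Dixon's 95% limit, where chance gives about 1 in 20. ACLY was 184 CPM in acetate replicate 1, while the other 3 acetate libraries lay between 217 and 219 CPM. SLC16A1 was 159.7 CPM in 1 mM glucose replicate 3, while the others lay between 184 and 188 CPM. These are the 2 libraries whose counts lean to short genes, with rho of -0.616 and -0.555, and the part of that lean in these values was not tested. ACSS3 was 0.145 CPM in 10 mM glucose replicate 2, while the others lay between 0.255 and 0.271 CPM, all from few counts.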

How the results depend on the processing

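Each result was recomputed under other scalings, filters, tests, transcript choices and sets of libraries. Of 571 member fold changes so recomputed, 545 kept direction and call, and of 132 ratios 122 did. No ratio was called with all libraries (lowest exact permutation p after adjustment 0.0571), so a ratio kept its call by staying uncalled. Transcripts of a member differed in counts by at most 0.733%, so the choice of transcript could change little. The alternatives reuse the same libraries, so these tallies are not independent checks. The fall of ACSS2 with acetate was called in each alternative, with values of -0.37 to -0.32 when 1 library was left out. The labels number the replicates, but same-numbered libraries deviated together only in part (correlations from -0.365 to 0.270, and 5 of 12 libraries matched their own number best). Between 10 and 1 mM glucose the same-number correlations were all positive (0.064 to 0.270), each the highest for its 10 mM library. The negative ones were all in comparisons with acetate. As the labels do not say what a number shares, the numbers were not taken as pairs. With the replicate number as a block, 9613, 1780 and 8899 genes were called for 10 against 1 mM glucose, acetate against 1 mM glucose and 10 mM glucose against acetate, where 9725, 1980 and 9049 were called without it. No member's call changed with the block: ACSS2 with acetate was -0.35 (edgeR adjusted p = 0.00205). Ratios paired by number cannot give an exact permutation p under 0.125.

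For 10 against 1 mM glucose, 1 member was called lower with a filter at a mean of 5 CPM, which drops ACSS3, and 1 with only the 8 libraries compared. Leaving out 1 library gave 1 to 3 members called lower, ACSS3 from -1.22 to -0.74 and SLC16A7 from -0.49 to -0.020. In alternatives chosen after seeing the data, SLC16A7 was called without both libraries that lean to short genes (-0.49). In others so chosen, it was called with each library's length trend removed (-0.47) and with that and the replicate block (-0.46).

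For acetate against 1 mM glucose, 1056 genes were called with only the 8 libraries compared, 3728 without both libraries that lean to short genes, 3148 with the length trend removed and 3214 with that and the replicate block. Leaving out 1 library gave 1196 (without acetate replicate 4) to 2956 (without acetate replicate 1). It gave fewer calls also without 1 mM replicate 1 (1294), 1 mM replicate 4 (1278) or acetate replicate 3 (1318). With both libraries left out 1 member, SLC25A1 (0.18), was called higher, and 0 or 1 with 1 library left out. In the latter SLC25A1 ran from 0.030 to 0.21. Uncalled members changed sign: ACSS3 from -0.36 to 0.13, SLC16A3 from -0.039 to 0.11 and SLC16A7 from -0.11 to 0.36.

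For 10 mM glucose against acetate, 2 members were called lower by limma-voom (ACSS3, -0.85) and 2 without both libraries (SLC16A7, -0.57). With the length trend removed 3 were (ACSS3 -0.99, SLC16A7 -0.50), and 3 with the block as well (ACSS3 -0.999, SLC16A7 -0.50). Leaving out 1 library gave 1 or 2, with ACSS3 from -0.95 to -0.70 and SLC16A7 from -0.57 to -0.26.

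With 1 library left out, the ratio of ACSS2 to ACLY ran from -0.44 to -0.34 for acetate against 1 mM glucose and from 0.25 to 0.35 for 10 mM glucose against acetate. ACSS2 to ACSS1 ran from -0.27 to -0.23 and from -0.0027 to 0.039, SLC16A1 to SLC16A3 from -0.20 to 0.0077 and from -1.30 to -1.22, and ACLY to SLC25A1 from -0.19 to 0.011 and from -0.27 to -0.13, in the same 2 comparisons. Without acetate replicate 1, the ratio of ACLY to SLC25A1 also separated between 10 mM glucose and acetate. The 5 ratio differences involving acetate that then separated each had an exact permutation p of 0.0490 after adjustment. With all libraries the separated ratios had 0.0571, and the lower value came from 1 more ratio reaching the smallest possible p. Ratios of 10 against 1 mM glucose do not use that library and are not in this count.

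With library totals as the scaling, the median of all genes moved by 0.14 for 10 against 1 mM glucose, by 0.04 for acetate and by 0.10 for 10 mM glucose against acetate. The share of calls that were higher went from 49.9 to 63.3%, from 48.4 to 65.2% and from 49.4 to 60.8%. The cause of these changes was not tested. No member's call changed with this scaling, but the members' median for 10 against 1 mM glucose went from 0.37 to 0.51. Over the alternatives that did not leave out a single library, ACSS2 ran from 0.32 to 0.46 in that comparison. ACLY ran from 0.35 to 0.56 and SLC16A1 from -0.42 to -0.23, so sizes vary by more than the SE given for each. Depth limits ACSS3, whose few counts leave wide intervals.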
